A study of Mus musculus with 10 samples.

Results

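Interleukin-2 (IL-2) and the receptors that use the common gamma chain were described by 9 genes, 1 ligand and 8 receptor chains, of the 48321 gene symbols counted in RNA-seq libraries of mouse spleen CD4+ T cells. They were taken as a gene family by name, with earlier results of these data known, and no value entered the rule: *Il2*, *Il2ra*, *Il2rb*, *Il2rg*, *Il7r*, *Il4ra*, *Il15ra*, *Il21r* and *Il9r*. All 9 passed the filter on low counts that left 13796 genes for testing. The cells came from C57BL/6 mice that carried a GFP reporter of *Foxp3*, either wild-type (WT) or with floxed *Satb1* alleles deleted by *Thpok-cre* (Satb1 F/F; ThPOK-cre; FoxP3-Gfp, here KO). *Satb1* encodes a nuclear protein that organises chromatin, and *Thpok-cre* is active in cells committed to the CD4 lineage, so the deletion is not specific to Tregs. How complete it was in each sorted group was not measured here. Sorting on the GFP signal, taken as FoxP3, and on surface CD25 gave 5 groups of 2 libraries each. Both genotypes contributed FoxP3+CD25+ cells (Tregs) and FoxP3-CD25- cells (non-Tregs), and KO mice also contributed FoxP3+CD25- cells. WT FoxP3+CD25- cells were not analysed here. Each genotype was represented by 2 mice, read from the library numbers, which imply mice but do not state them, and p-values measure the spread between these libraries.

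IL-2 is made mainly by activated conventional T cells and is bound with high affinity by a receptor of 3 chains: the alpha chain CD25 (*Il2ra*), the beta chain CD122 (*Il2rb*) and the common gamma chain CD132 (*Il2rg*). The gamma chain is also part of the receptors for IL-4, IL-7, IL-9, IL-15 and IL-21, each with a chain of its own, and all of them signal through JAK1 and JAK3 to STAT factors, STAT5 foremost for IL-2, IL-7 and IL-15. Tregs are known for high CD25 and low CD127 (*Il7r*), and depend on IL-2 made by other cells, while naive T cells depend on IL-7.

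Between 6094952 and 12410064 reads per library (median 7721649) were counted on genes, and a count of 3, the floor used here, was worth 0.242 to 0.492 CPM. Levels are in CPM, each count divided by the library's total and scaled by edgeR's TMM factors, and levels of different genes are compared only as RPKM, the same scale divided by kilobases of annotated exon. *Foxp3* followed the GFP gate, with 618 to 739 CPM in Tregs, 318 and 361 CPM in KO FoxP3+CD25- cells, and 18.0 to 38.9 CPM in non-Tregs. *Satb1* was not lower in the libraries labelled KO (log2 fold change 0.40, FDR = 0.9999 in Tregs, and -0.16, FDR = 0.927 in non-Tregs, KO against WT), and counts per gene do not resolve the deleted exons. Both WT replicate 1 libraries stood apart from the other 8, with 14487 and 16362 *Xist* counts and no count of 4 genes on chromosome Y. Results of the 9 members that rest on WT libraries are therefore also given without them where a call changed. Calls of the other named genes were not examined without them. CD4 T-cell markers summed to 2288 to 2840 CPM in all libraries. Markers of other lineages were low: *Ms4a1*, a B-cell marker, had at most 5 counts, *Ncr1* at most 2 and *Cd14* at most 1 in any library. CD8 markers summed to 9.38 to 16.6 CPM. Myeloid markers summed to 13.9 to 18.2 CPM in Tregs and 17.5 to 21.3 CPM in the other libraries, and 1 of the 5, *Itgam*, was called lower in KO Tregs than in KO non-Tregs (log2 fold change -1.75, SE 0.38, FDR = 0.0207). The 3 B-cell markers summed to 16.2 to 20.2 CPM in Tregs and 1.65 to 6.45 CPM in the other libraries, most of it *Cd79b*, and the part of the B-cell and myeloid genes in the Treg contrasts was not tested. In bulk samples, fewer cells that express a gene and less RNA per cell cannot be told apart.

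The 9 genes lie on 6 chromosomes of GRCm38 (GENCODE M21), with 2 close pairs. *Il2ra* (chr2:11642807-11693193, plus strand) lies 12096 bases before *Il15ra* (chr2:11705290-11734317, plus strand), and *Il4ra* (chr7:125552120-125579474, plus strand) lies 23954 bases before *Il21r* (chr7:125603429-125633570, plus strand), with no annotated gene between either pair. The others are *Il2* (chr3:37120523-37125959), *Il2rb* (chr15:78479256-78495271), *Il7r* (chr15:9505788-9530176), *Il9r* (chr11:32187541-32200279) and *Il2rg* (chrX:101264378-101268255), all on the minus strand. *Il4ra* shares 571 exon bases with the antisense gene *Gm44876* (1029 counts over all libraries), and the strand setting of the counting was not given in the sources used here, so reads of that pair may be split or lost. *Il2rg* shares 728 exon bases with *Gm20489*, which held 1 count over all libraries.

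*Il2*, *Il2ra* and *Il9r* differed most widely between libraries. *Il2* ran from 0 to 5.95 CPM. *Il2ra* ran from 1.55 to 760 CPM, a 491-fold range, and *Il9r* from 4.05 to 43.8 CPM, a 10.8-fold range. The bases before their starts (RefSeq, GRCm38.p6) are shown because the differences below concern these genes. The *Il9r* window is chr11:32200280-32200529, the *Il2ra* window chr2:11642542-11642791 and the *Il2* window chr3:37125960-37126204, the last without the 5 bases that GENCODE counts as exon. Capitals mark matches to any of 4 motifs searched on both strands: TTCNNNGAA (the STAT core), TGTTTA (forkhead), TGTGGT (Runx) and GGAAAA (NFAT).
Il9r: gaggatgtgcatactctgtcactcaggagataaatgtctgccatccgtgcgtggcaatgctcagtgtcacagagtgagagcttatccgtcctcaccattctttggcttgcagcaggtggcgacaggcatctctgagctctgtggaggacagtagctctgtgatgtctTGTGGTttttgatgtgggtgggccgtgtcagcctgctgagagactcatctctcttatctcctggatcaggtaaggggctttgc
Il2ra: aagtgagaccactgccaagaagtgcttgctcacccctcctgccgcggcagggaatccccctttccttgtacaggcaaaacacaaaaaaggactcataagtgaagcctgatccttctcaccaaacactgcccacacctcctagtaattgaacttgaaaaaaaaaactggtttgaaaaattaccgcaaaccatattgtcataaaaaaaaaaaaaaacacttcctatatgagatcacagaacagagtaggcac
Il2: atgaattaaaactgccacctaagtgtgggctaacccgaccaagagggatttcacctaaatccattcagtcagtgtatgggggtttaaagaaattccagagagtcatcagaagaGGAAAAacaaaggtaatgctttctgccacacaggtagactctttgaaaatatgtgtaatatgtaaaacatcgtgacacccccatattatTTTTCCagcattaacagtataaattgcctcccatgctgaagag

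The *Il9r* window held 1 Runx match, beginning 83 bases before the start, on the strand of the gene. The *Il2* window held 2 NFAT matches, 137 bases before the start on the strand of the gene and 48 bases before it on the opposite strand. The *Il2ra* window held no match to any of the 4 motifs, which says only that these letters do not occur in these 250 bases. Among 32841 promoter windows of the same length, 7.02% held the STAT letters, 12.03% the forkhead, 14.0% the Runx and 20.4% the NFAT letters. Of the 8 members with a RefSeq window, *Il7r* was the one with a STAT match, 142 bases before its RefSeq start, beside an NFAT match at 121 bases. That window (chr15:9529877-9530126) lies inside the gene as GENCODE annotates it, and 86 of its bases are GENCODE exon. *Il21r* held a forkhead match at 38 bases and a Runx match at 33 bases on the opposite strand, which share 1 base. *Il2rb* was not matched to a window.

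Tregs and CD25- cells differed in which receptor chain led. Per length, the 8 receptor genes together summed to 485 to 734 RPKM per library. In Tregs the beta chain led, with *Il2rb* at 33.1% ± 3.08 (SD, n = 2) of the receptor RPKM in WT and 32.9% ± 3.33 in KO, and *Il2ra* added 18.3% ± 0.217 and 16.6% ± 2.11. In all 3 CD25- groups *Il7r* led instead, with 43.3% ± 5.96 in WT non-Tregs, 40.5% ± 0.798 in KO non-Tregs and 44.3% ± 0.329 in KO FoxP3+CD25- cells. The *Il2ra* share was set by the CD25 gate, and since *Il2ra* is part of the sum, it lowers the shares of the other chains in Tregs. The shared chain *Il2rg* kept 15.6% to 22.9% of the sum as a group mean, while its group means in CPM ran from 249 to 277. Among the CD25- groups *Il2rb* varied as well, with 12.7% ± 1.26 in KO non-Tregs, 6.28% ± 1.72 in WT non-Tregs and 5.98% ± 1.02 in KO FoxP3+CD25- cells. *Il15ra* and *Il9r* stayed under 1% in every group except *Il9r* in KO non-Tregs, at 1.64% ± 0.0443. *Il2ra* stayed under 1% in the CD25- groups.

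**Figure D1:**
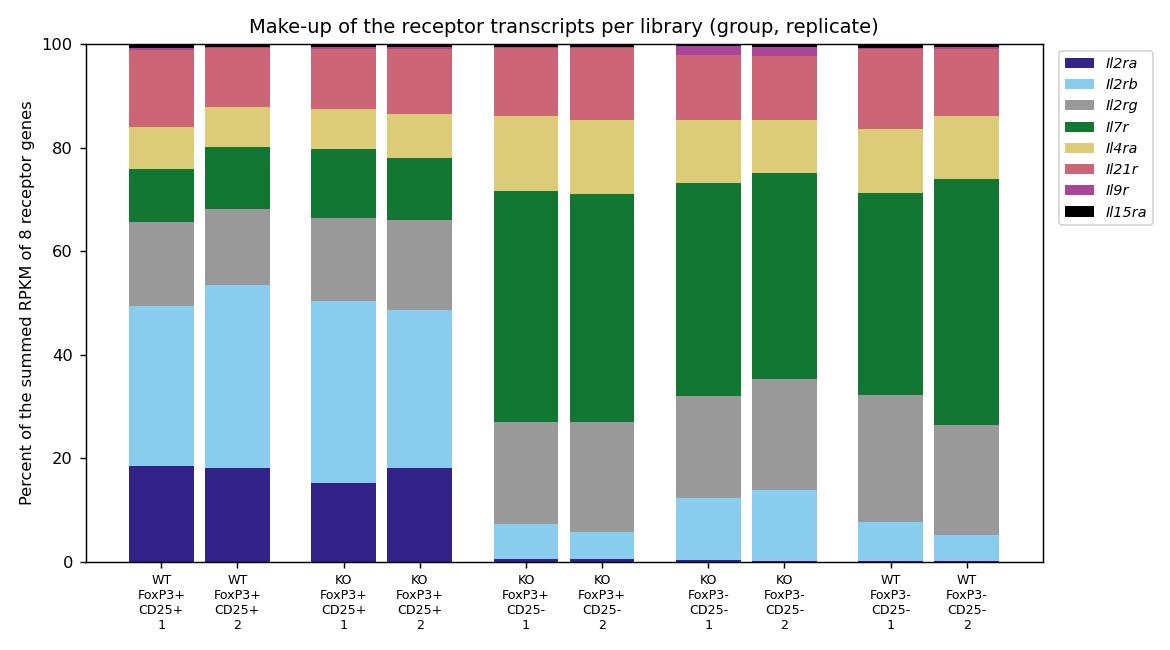
Share of each of 8 receptor genes in their summed RPKM (vertical axis, percent), 1 stacked bar per library, ordered by sorted group and replicate number. *Il2rb* is the widest band in the 4 Treg bars, and *Il7r* is the widest band in the 6 bars of CD25- cells. The *Il2ra* band was set by the CD25 gate.

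Counts of members called differentially expressed (edgeR's quasi-likelihood test, Benjamini-Hochberg FDR under 0.05 over all 13796 genes) were higher in the comparisons of Tregs with CD25- cells than in the others. In WT Tregs against WT non-Tregs, 4 of 9 members were called, 2 higher and 2 lower, where 10.9% of all genes were called. In KO Tregs against KO non-Tregs, 5 were called, 2 higher and 3 lower, beside 6.34% of all genes. In KO FoxP3+CD25- cells against KO Tregs, 5 were called, 2 higher and 3 lower, beside 7.01%, and against WT Tregs 5, 3 higher and 2 lower, beside 11.2%. Each of these 4 counts includes *Il2ra*, whose call was set by the CD25 gate, and without it 3, 4, 4 and 4 of 8 members were called. Far fewer genes separated KO FoxP3+CD25- cells from non-Tregs. Against KO non-Tregs 1 member was called, *Il9r*, beside 1.67% of all genes, and against WT non-Tregs 1, *Il2ra*, beside 0.768%. Between genotypes, no member was called in Tregs, where 0.00725% of genes (1 gene) were called, and 1 member, *Il9r*, was called in non-Tregs, where 0.145% were called. In Tregs 1 member, *Il2*, had an unadjusted p under 0.05, and DESeq2 called none either. The difference of the Treg contrast between genotypes called 0 members and 0% of all genes, with 3 members and 685 genes at an unadjusted p under 0.05; DESeq2 called 1 member and 25 genes.

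The members' median log2 fold change stayed within -0.21 to 0.28, and members were called in both directions in each comparison of Tregs with CD25- cells. The median was 0.28 in WT Tregs against non-Tregs and -0.21 in KO FoxP3+CD25- cells against WT Tregs, beside -0.02 and 0.02 over all genes. Both medians were the same with *Il2* set at the bound given below. The median absolute change was wider in most sort contrasts: 1.23 for the members against 0.20 for all genes in KO Tregs against KO non-Tregs, and 1.501 against 0.21 in KO FoxP3+CD25- cells against KO Tregs. In WT Tregs against WT non-Tregs it was 0.44 against 0.22, and in KO FoxP3+CD25- cells against WT Tregs 1.05 against 0.24. All these medians of the members include *Il2ra*, whose change between CD25 gates was set by the sort. In KO against WT Tregs it was 0.12 for the members and 0.14 for all genes. Comparisons that use the same libraries, such as the 4 with KO FoxP3+CD25- cells, are not independent of each other.

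**Figure D2:**
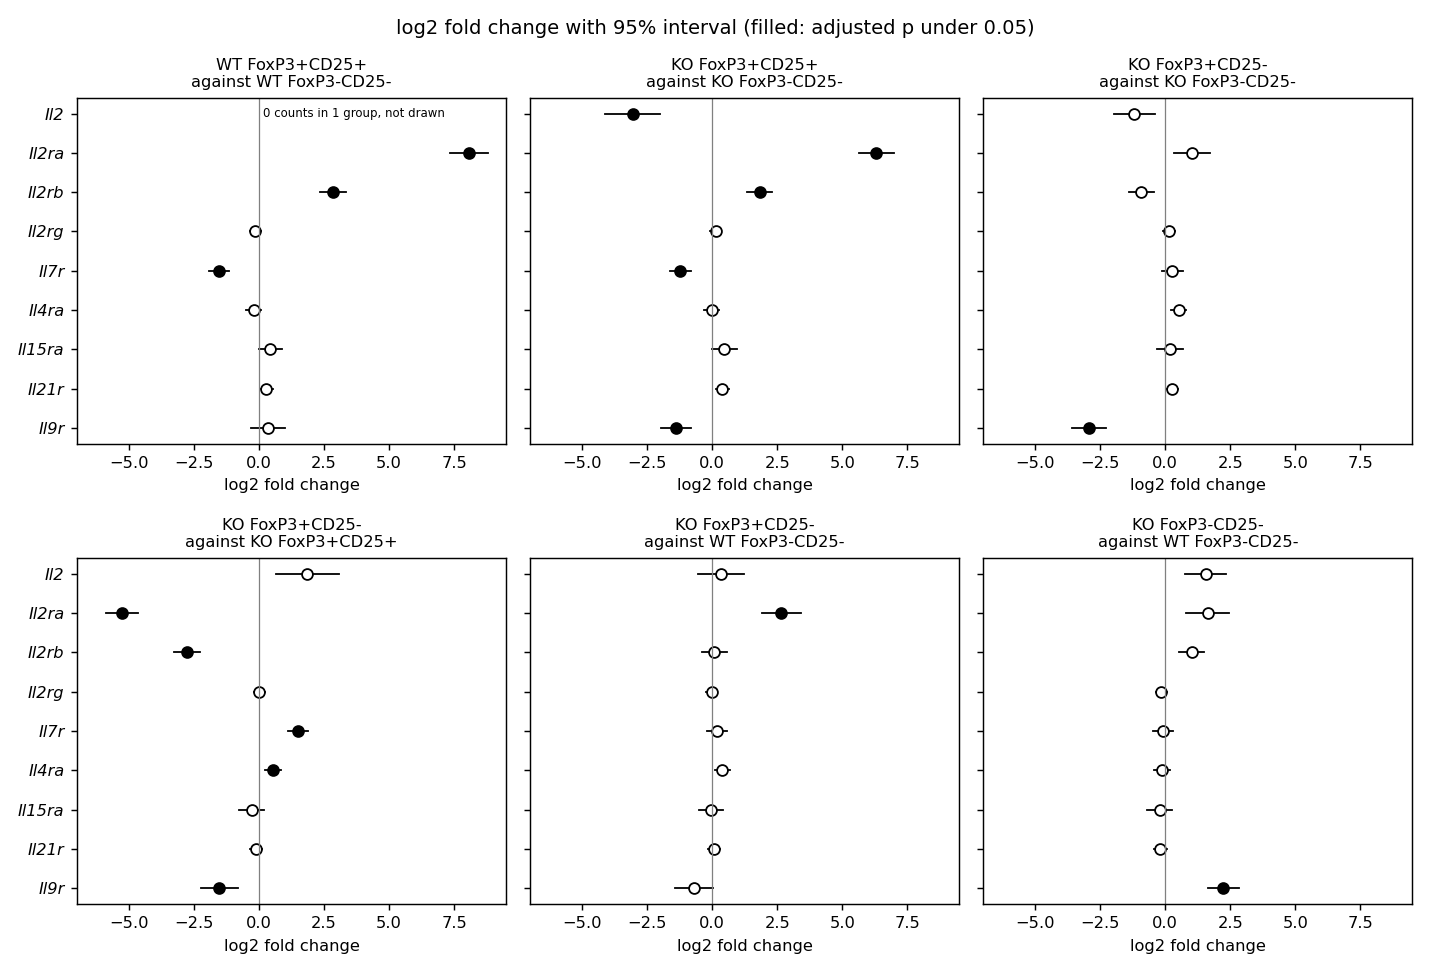
log2 fold changes of the 9 members (horizontal axis) with 95% intervals in 6 comparisons, filled where the adjusted p was under 0.05, with *Il2* left out of the WT panel because WT Tregs had 0 counts. *Il2rb* and *Il7r* lie on opposite sides of 0 in the Treg contrasts, and *Il9r* is the filled point in the comparisons of KO FoxP3+CD25- with KO non-Tregs and of KO with WT non-Tregs.

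*Il2*, the ligand, was scarce in every library and scarcest in Tregs. WT Tregs held 0 and 0 counts, which at the floor allows up to 3 counts in each library. KO Tregs held 3 and 6 counts (0.458 and 0.786 CPM). WT non-Tregs held 26 and 14 counts (2.15 and 1.44 CPM), KO FoxP3+CD25- cells 13 and 23 (2.101 and 2.52 CPM) and KO non-Tregs 36 and 37 (5.95 and 4.87 CPM). In CPM the Tregs of each genotype thus lay below all CD25- libraries, and KO non-Tregs lay above all others. *Il2* was called lower in Tregs in both genotypes, at least 4.87-fold in WT from the floor (FDR = 0.00370) and 8.30-fold in KO (log2 fold change -3.05, SE 0.47, FDR = 0.00403). The WT call was lost without the libraries of WT replicate 1 (FDR = 0.0706). KO FoxP3+CD25- cells were at least 6.25-fold higher than WT Tregs (FDR = 0.00252). Against KO Tregs their log2 fold change was 1.86 (SE 0.55, FDR = 0.0794), which passed with the mouse as a block (1.86, FDR = 0.0466). The higher level of KO than WT non-Tregs (log2 fold change 1.55, SE 0.34, FDR = 0.183) was not called. KO FoxP3+CD25- cells and WT non-Tregs differed by 0.35 (95% interval -0.54 to 1.24).

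Among the other ligands of the family, *Il21*, made by follicular helper and other effector CD4+ T cells, was the one with substantial counts. It had 28.2 and 18.9 CPM in WT non-Tregs and 23.3 and 35.8 CPM in KO non-Tregs, against at most 1.92 CPM in the other 6 libraries. Both non-Treg groups thus lay above all FoxP3+ libraries, and in Tregs *Il21* was called lower in WT (log2 fold change -4.40, SE 0.45, FDR = 0.000128) and KO (-6.09, SE 0.55, FDR = 0.000123). With 5 and 8 counts, KO FoxP3+CD25- cells were below KO non-Tregs (log2 fold change -5.11, SE 0.48, FDR = 0.000604) and below WT non-Tregs (-4.78, SE 0.48, FDR = 0.00139). Of 6 other ligand genes, 2 (*Il21* and *Il4*) passed the filter. *Il4* had at most 12 counts and was not called in any comparison, *Il7*, *Il15* and *Tslp* had at most 5 counts in a library, and *Il9* had 0 in all 10.

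**Figure D3:**
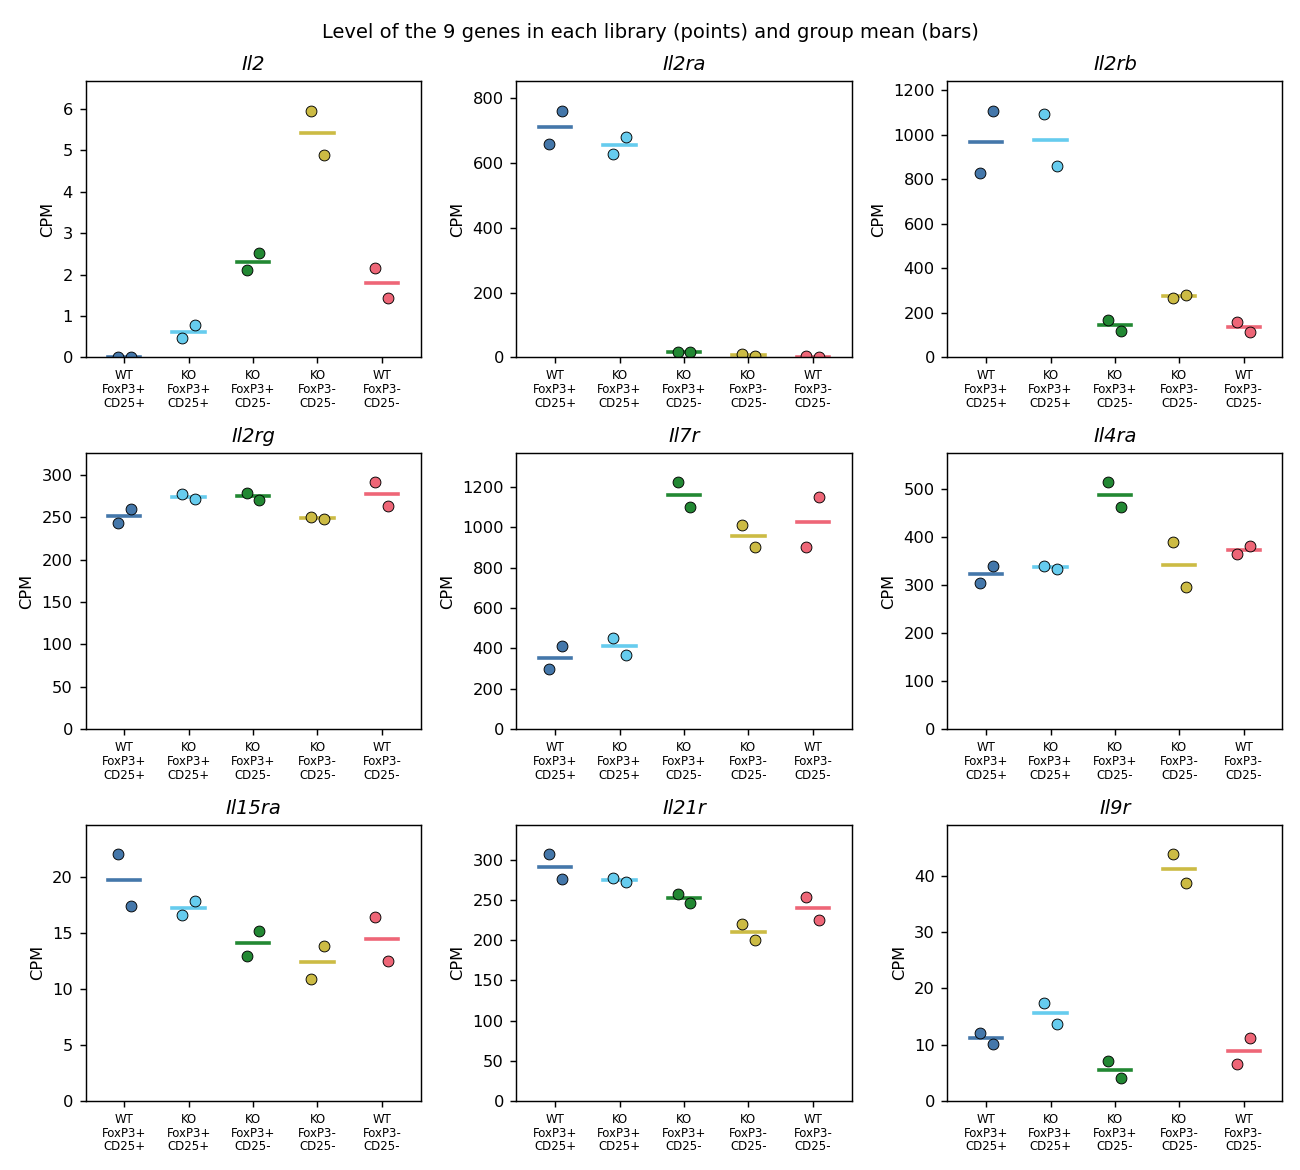
Level in CPM (vertical axis from 0, 1 panel per gene) of the 9 members in the 2 libraries of each group (points) with the group mean (bar). *Il2ra* and *Il2rb* are high in the 4 Treg libraries, *Il7r* is high in the 6 others, and *Il9r* is highest in both KO non-Treg libraries.

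*Il2ra* encodes CD25, on which the cells were sorted, so its levels across CD25 gates describe the sort and are not a result. It had 658 and 760 CPM in WT Tregs and 627 and 679 CPM in KO Tregs. In the CD25- gates it had 16.8 and 16.7 CPM in KO FoxP3+CD25- cells, 11.4 and 5.40 CPM in KO non-Tregs and 3.56 and 1.55 CPM in WT non-Tregs. These 3 groups, sorted through the same gate, did not overlap and stood in that order. The level in KO FoxP3+CD25- cells was 6.33-fold that of WT non-Tregs (log2 fold change 2.66, SE 0.34, FDR = 0.00512), which was called under every alternative tried. The steps between neighbours were not called: 1.03 (SE 0.31, FDR = 0.165) from KO non-Tregs to KO FoxP3+CD25- cells and 1.63 (SE 0.37, FDR = 0.180) from WT to KO non-Tregs. The first passed without KO non-Treg replicate 1 (1.63, FDR = 0.0399) and without a filter on low counts (FDR = 0.0317). The second passed without a filter (FDR = 0.0170) and in DESeq2 (FDR = 0.0496). The sum of 6 Treg markers (*Foxp3*, *Ikzf2*, *Ikzf4*, *Ctla4*, *Tnfrsf18* and *Lrrc32*) was 541 to 696 CPM in KO FoxP3+CD25- cells, 304 to 357 in KO non-Tregs, 180 to 251 in WT non-Tregs and 2559 to 3314 in Tregs. The defining marker *Lrrc32* was counted 26 and 22 times in KO FoxP3+CD25- cells and 0 to 8 times in non-Tregs, against 1772 to 2396 in Tregs. The order of the sums in the CD25- groups rested on *Foxp3*, the gene of the GFP gate. The other 5 summed to 223 to 335 CPM in KO FoxP3+CD25- cells, 284 to 318 CPM in KO non-Tregs and 162 to 233 CPM in WT non-Tregs, so that the first 2 groups overlapped. Their part in the *Il2ra* level was not tested. Between KO and WT Tregs *Il2ra* did not differ beyond its spread (log2 fold change -0.12, 95% interval -0.61 to 0.37, FDR = 0.9999).

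*Il2rb*, the chain shared by the IL-2 and IL-15 receptors, was not part of the sort. It had 827 and 1109 CPM in WT Tregs and 1096 and 858 CPM in KO Tregs. WT non-Tregs had 159 and 113 CPM, KO non-Tregs 268 and 283 CPM, and KO FoxP3+CD25- cells 169 and 121 CPM. Treg libraries lay above all others, KO non-Tregs came next without overlap, and KO FoxP3+CD25- cells overlapped WT non-Tregs. Tregs were 7.11-fold above non-Tregs in WT (log2 fold change 2.83, SE 0.23, FDR = 3.06e-05) and 3.55-fold above them in KO (1.83, SE 0.22, FDR = 0.000653). In KO FoxP3+CD25- cells it was below KO Tregs (log2 fold change -2.76, SE 0.23, FDR = 7.28e-05) and WT Tregs (-2.74, SE 0.23, FDR = 5.34e-05). Against WT non-Tregs their difference was 0.09 (95% interval -0.39 to 0.56, FDR = 0.991). *Foxp3*, in the same comparison, was 18.5-fold higher (log2 fold change 4.21, SE 0.25, FDR = 8.31e-05).

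In KO non-Tregs *Il2rb* was 2.02-fold that of WT non-Tregs (log2 fold change 1.02, SE 0.22, FDR = 0.143), which was not called. It passed without a filter on low counts (FDR = 0.00533), in DESeq2 (FDR = 0.000321) and in a fit of the compared groups alone (FDR = 0.0242). The difference of KO FoxP3+CD25- cells from KO non-Tregs (-0.93, SE 0.22, FDR = 0.0668) was not called either, but was called in 5 of 12 alternatives. These were the mouse as a block (-0.95, FDR = 0.0118), no filter on low counts (FDR = 0.00235) and DESeq2 (FDR = 0.000618). The others were library size alone (FDR = 0.0440) and a fit of the compared groups alone (FDR = 0.0364). Markers of NK cells, which carry much *Il2rb*, summed to 12.7 to 23.6 CPM in KO non-Tregs, 13.2 to 26.0 CPM in WT non-Tregs and 2.41 to 3.07 CPM in KO FoxP3+CD25- cells. Their sum thus did not separate KO from WT non-Tregs but did separate KO FoxP3+CD25- cells from both, and most of it was *Eomes*, which memory T cells also express. Summed memory T-cell markers (*Cd44*, *Cxcr3*, *Itgb1* and *S100a4*) did separate the 3 groups, at 999 to 1410.35 CPM in KO non-Tregs, 446 to 773 CPM in WT non-Tregs and 149 to 179 CPM in KO FoxP3+CD25- cells. Most of this memory sum was *Itgb1*, with a mean of 938 ± 272 CPM in KO non-Tregs. The part of either list in the *Il2rb* level was not tested. *Ncr1*, the defining NK marker, had at most 2 counts in any library, and *Klre1* at most 4. *Klrb1c* had 2.97 ± 1.39 CPM in KO non-Tregs, 1.27 ± 0.392 in WT non-Tregs and 0.274 ± 0.387 in KO FoxP3+CD25- cells. *Eomes* went the other way between the non-Tregs, with 14.9 ± 6.33 CPM in KO and 18.0 ± 9.43 in WT.

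*Il2rg*, the chain common to the whole family, was the steadiest member. Its lowest library had 244 CPM and its highest 291 CPM, a 1.19-fold range over all 10. Group means ran from 249 CPM in KO non-Tregs to 277 CPM in WT non-Tregs, and most neighbours in that order overlapped. It was not called in any comparison. The widest of the 8 group differences was -0.15 (KO against WT non-Tregs, 95% interval -0.37 to 0.06).

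*Il7r*, the alpha chain for IL-7, was the mirror of *Il2rb* across the sort. It had 299 and 410 CPM in WT Tregs and 451 and 369 CPM in KO Tregs. WT non-Tregs had 904 and 1151 CPM, KO non-Tregs 1013 and 904 CPM, and KO FoxP3+CD25- cells 1221 and 1100 CPM. The Treg libraries lay below all 6 CD25- libraries, and WT and KO Tregs overlapped. Among CD25- cells, WT non-Tregs overlapped both KO groups, while KO FoxP3+CD25- cells lay above KO non-Tregs. In Tregs *Il7r* was 2.90-fold below non-Tregs in WT (log2 fold change -1.53, SE 0.18, FDR = 0.000306) and 2.34-fold below in KO (-1.23, SE 0.18, FDR = 0.00222). The level in KO FoxP3+CD25- cells was 2.83-fold that of KO Tregs (log2 fold change 1.501, SE 0.18, FDR = 0.000616) and 3.27-fold that of WT Tregs (1.71, SE 0.18, FDR = 0.000174). Their differences from non-Tregs were not called, with 0.28 (95% interval -0.11 to 0.66) against KO and 0.18 (-0.21 to 0.56) against WT. Among FoxP3+ cells *Il7r* was thus low in the CD25+ gate and not in the CD25- gate. Naive T-cell markers split Tregs from CD25- cells in the same direction, with summed levels of 2514 to 2911 CPM in Tregs and 4486 to 5067 CPM in the CD25- libraries. Among CD25- cells their order was another: the sum was highest in WT non-Tregs, at 4988 to 5067 CPM. KO FoxP3+CD25- cells, with the highest mean of *Il7r*, had sums of 4486 to 4927 CPM. The part of these markers in the *Il7r* level was not tested.

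Of 4 regulators known to act on *Il7r* (*Foxo1*, *Gfi1*, *Gabpa* and *Ets1*), the repressor *Gfi1* was called higher in Tregs in both genotypes. Its means were 53.2 ± 3.44 CPM against 24.6 ± 4.90 in WT (log2 fold change 1.11, SE 0.18, FDR = 0.00207) and 51.4 ± 2.63 against 29.6 ± 1.002 in KO (0.80, SE 0.18, FDR = 0.0247). The other 3 were not called in any comparison, so 1 of 4 was called in each Treg contrast, beside 10.9% of all genes in WT and 6.34% in KO. *Gfi1* was also lower in KO FoxP3+CD25- cells than in WT Tregs (-0.62, SE 0.18, FDR = 0.0461), where 11.2% of all genes were called. In these cells it was not called against KO Tregs, KO non-Tregs or WT non-Tregs. The part of *Gfi1* in the *Il7r* level was not tested.

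*Il9r*, the alpha chain for IL-9, a cytokine of helper T cells that acts on mast cells and T cells, was highest in KO non-Tregs. KO non-Tregs had 43.8 and 38.7 CPM. KO Tregs had 17.4 and 13.8 CPM, WT Tregs 12.2 and 10.2 CPM, WT non-Tregs 6.63 and 11.1 CPM, and KO FoxP3+CD25- cells 7.11 and 4.05 CPM. KO non-Tregs lay far above every other library, KO Tregs came next without overlap, and the last 3 groups overlapped in neighbouring pairs.

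In non-Tregs *Il9r* was 4.69-fold higher in KO than in WT (log2 fold change 2.23, SE 0.27, 95% interval 1.64 to 2.82, FDR = 0.0101), higher in 2 of 2 KO libraries, and it ranked 7 by p-value of 13796 genes. It was called in 8 of 13 alternatives, all of them with every library of the comparison kept. Leaving out 1 library leaves a single one in its group, and the call was then lost each time. Without WT non-Treg replicate 1 the log2 fold change was 1.89 (FDR = 0.103), without WT replicate 2 it was 2.65 (FDR = 0.0614), without KO non-Treg replicate 1 it was 2.15 (FDR = 0.0913) and without KO replicate 2 it was 2.32 (FDR = 0.0537). Without both libraries of WT replicate 1 it was 1.89 (FDR = 0.0597). The direction was the same in all of them and the adjusted p was not under 0.05 in any.

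Within KO mice *Il9r* separated the 3 sorted groups. KO FoxP3+CD25- cells were 7.63-fold below KO non-Tregs (log2 fold change -2.93, SE 0.30, FDR = 0.000832, rank 18), and this was called in every alternative tried, with FDR of at most 0.0226. KO Tregs were 2.65-fold below KO non-Tregs (-1.41, SE 0.26, FDR = 0.00864), a call lost without KO non-Treg replicate 1 (FDR = 0.0595) or KO Treg replicate 2 (FDR = 0.101). Against KO Tregs, KO FoxP3+CD25- cells were 2.88-fold lower (-1.52, SE 0.32, FDR = 0.0143), a call lost without KO Treg replicate 1 (FDR = 0.101) or KO FoxP3+CD25- replicate 2 (FDR = 0.161). Against WT Tregs their difference was -1.05 (SE 0.33, FDR = 0.0666), which was called without a filter on low counts (FDR = 0.0371), in DESeq2 (FDR = 0.0273) and without KO FoxP3+CD25- replicate 1 (-1.46, FDR = 0.0485). In WT the Treg contrast was 0.34 (95% interval -0.30 to 0.98, FDR = 0.567). The difference between the KO and WT contrasts was -1.75 (SE 0.39, unadjusted p = 0.000978 in edgeR's quasi-likelihood test, FDR = 0.520) and was not called. With the mouse as a block it was -1.77 (SE 0.32, FDR = 0.0287), and in DESeq2 -1.76 (FDR = 0.0412), both called. In KO Tregs against WT Tregs *Il9r* was not called (0.48, 95% interval -0.15 to 1.11, FDR = 0.9999).

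Genes of antigen-experienced (memory) T cells differed between some of the same groups. The summed CPM of 4 memory markers (*Cd44*, *Cxcr3*, *Itgb1* and *S100a4*) was 999 to 1410.35 in KO non-Tregs, 446 to 773 in WT non-Tregs, 467 to 486 in KO Tregs, 500.3 to 904 in WT Tregs and 149 to 179 in KO FoxP3+CD25- cells. Most of the sum was *Itgb1* in every group, with a mean of 938 CPM in KO non-Tregs. *Cxcr3* and *S100a4* also had their highest means in KO non-Tregs. *Cd44* had its highest mean in WT Tregs, at 174 ± 53.3 CPM, beside 152 ± 6.23 in KO non-Tregs. Against KO non-Tregs, where 1.67% of all genes were called, all 4 of these markers were called lower in KO FoxP3+CD25- cells: *Cd44*, an adhesion receptor of activated cells (log2 fold change -3.17, SE 0.22, FDR = 0.000160), the chemokine receptor *Cxcr3* (-3.34, SE 0.40, FDR = 0.00245), the integrin chain *Itgb1* (-2.79, SE 0.34, FDR = 0.00277), and *S100a4*, which had 0 and 2 counts against 8 and 24 (FDR = 0.0362). Between KO and WT non-Tregs 0 of the 4 were called, beside 0.145% of all genes. Their log2 fold changes ran from 0.72 for *Cd44* (FDR = 0.253) to 2.80 for *S100a4* (SE 0.65, FDR = 0.161), with a median of 0.93. *S100a4* had 3 and 4 counts in WT non-Tregs. At sums of 999 and 1410.35, KO non-Tregs had 43.8 and 38.7 CPM of *Il9r*. WT Tregs had 12.2 and 10.2 CPM at 904 and 500.3, and WT non-Tregs 6.63 and 11.1 CPM at 773 and 446. KO Tregs had 17.4 and 13.8 CPM at 486 and 467, and KO FoxP3+CD25- cells 7.11 and 4.05 CPM at 179 and 149. The sums of 904 and 773 belong to the WT replicate 1 libraries, which stood apart in *Xist* counts. The part of memory cells in the *Il9r* level was not tested.

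**Figure D4:**
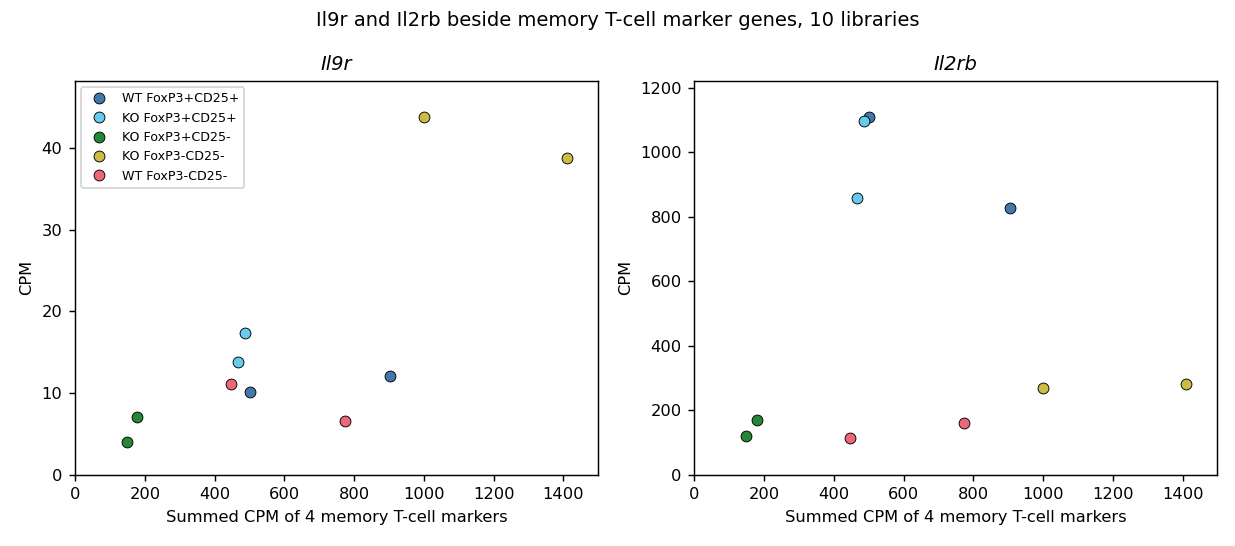
*Il9r* (left) and *Il2rb* (right) in CPM against the summed CPM of 4 memory T-cell markers, 1 point per library coloured by sorted group. Most of the sum is *Itgb1*. The KO non-Treg libraries lie highest for *Il9r*, at 38.7 and 43.8 CPM, with marker sums of 1410.35 and 999, and the KO FoxP3+CD25- libraries have the lowest marker sums, with *Il9r* at 7.11 and 4.05 CPM, while *Il2rb* separates the Tregs at marker sums that other groups share.

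*Il4ra*, the chain for IL-4 and IL-13, was highest in KO FoxP3+CD25- cells. They had 513 and 463 CPM, above every other library. WT non-Tregs had 365 and 380 CPM, KO non-Tregs 389 and 296 CPM, KO Tregs 340 and 334 CPM and WT Tregs 304 and 340 CPM, and these last 4 groups overlapped in neighbouring pairs. The level was 1.45-fold that of KO Tregs (log2 fold change 0.54, SE 0.13, FDR = 0.0353) and 1.52-fold that of WT Tregs (0.60, SE 0.13, FDR = 0.0141). The first call was lost when any of the 4 libraries was left out (FDR = 0.167 and 0.194 without KO Treg replicates 1 and 2, and 0.198 and 0.0915 without KO FoxP3+CD25- replicates 1 and 2). The second was lost without WT Treg replicate 1 (FDR = 0.0899) or KO FoxP3+CD25- replicate 1 (FDR = 0.0989), without both libraries of WT replicate 1 (FDR = 0.123), and in a fit of the compared groups (FDR = 0.0534). Against KO non-Tregs the difference was 0.51 (SE 0.13, FDR = 0.101), which was called with the mouse as a block (0.52, FDR = 0.00699), in DESeq2 (FDR = 0.0320) and without a filter on low counts (FDR = 0.0296). Without KO non-Treg replicate 1 the difference from KO non-Tregs was 0.72. Against WT non-Tregs it was 0.39 (SE 0.13, FDR = 0.340).

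*Il21r*, the chain for IL-21, and *Il15ra*, which presents IL-15 to neighbouring cells, had their 2 highest groups in Tregs. *Il21r* had 307 and 276 CPM in WT Tregs and 273 and 278 CPM in KO Tregs, and 201 to 258 CPM in the 6 CD25- libraries. *Il15ra* had 17.4 and 22.0 CPM in WT Tregs and 16.6 and 17.8 CPM in KO Tregs, and 10.9 to 16.4 CPM in the others. For both genes the Treg libraries lay above all CD25- libraries by small margins. Neither gene was called in any of the comparisons, the closest being *Il21r* in KO Tregs against KO non-Tregs (log2 fold change 0.39, SE 0.11, FDR = 0.0595). With the mouse as a block *Il21r* was called higher in Tregs in KO (0.39, FDR = 0.00473) and in WT (0.28, FDR = 0.0185). In KO it was also called with library size alone (FDR = 0.0382). *Il15ra* differed by 0.44 (95% interval -0.01 to 0.89) in WT and 0.47 (-0.02 to 0.96) in KO. *Il15ra* rested on 66 to 198 counts per library.

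Several genes that STAT5 is known to induce were higher in Tregs. Of 11 such genes, all tested, 5 were called higher and 1 lower in WT Tregs against non-Tregs, and again 5 higher and 1 lower in KO, where 10.9% and 6.34% of all genes were called, with median log2 fold changes of 0.72 and 0.92 beside -0.02 and 0.00 for all genes. *Cish*, a feedback inhibitor of cytokine receptors, had 276 ± 2.50 CPM in WT Tregs and 32.5 ± 5.37 in WT non-Tregs (log2 fold change 3.08, SE 0.20, FDR = 8.82e-06), and 286 ± 41.9 CPM in KO Tregs and 39.9 ± 10.95 in KO non-Tregs (2.85, SE 0.20, FDR = 2.87e-05). *Socs2*, of the same inhibitor family, was higher in Tregs by 3.84 (SE 0.46, FDR = 0.000365) in WT and 3.39 (SE 0.51, FDR = 0.00259) in KO, and the survival kinase *Pim1* by 1.20 (SE 0.18, FDR = 0.00144) and 1.28 (SE 0.18, FDR = 0.00206). *Socs1* was higher in KO Tregs by 1.02 (SE 0.15, FDR = 0.00255), with 87.1 ± 1.79 CPM against 43.1 ± 7.11 in KO non-Tregs. Its levels in WT were similar, at 78.5 ± 13.3 CPM in Tregs and 40.2 ± 2.81 in non-Tregs. Tests are given only for the genes of lowest p in each comparison, so its absence for WT does not mark a difference between genotypes. The gene called lower was *Pim2*, a survival kinase related to *Pim1*, in both (-0.92, SE 0.13, FDR = 0.000752 in WT).

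KO FoxP3+CD25- cells differed in these target genes from Tregs, with no call against non-Tregs. Against KO Tregs, where 7.01% of all genes were called, 0 were called higher and 4 of 11 lower: *Cish* (log2 fold change -2.48, SE 0.19, FDR = 6.50e-05), *Socs2* (-5.52, SE 0.64, FDR = 0.000552), *Pim1* (-0.92, SE 0.18, FDR = 0.0109) and *Socs1* (-0.56, SE 0.15, FDR = 0.0451). Against WT Tregs 1 was higher and 5 were lower, beside 11.2%. Against KO non-Tregs and against WT non-Tregs 0 of 11 were called, beside 1.67% and 0.768% of all genes, with medians of 0.20 and 0.06. *Cish* had 56.9 and 45.7 CPM in these cells and 47.6 and 32.1 CPM in KO non-Tregs, and *Socs2* was counted 4 and 7 times against 6 and 38 times. Between genotypes 0 of 11 were called, in Tregs or in non-Tregs.

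**Figure D5:**
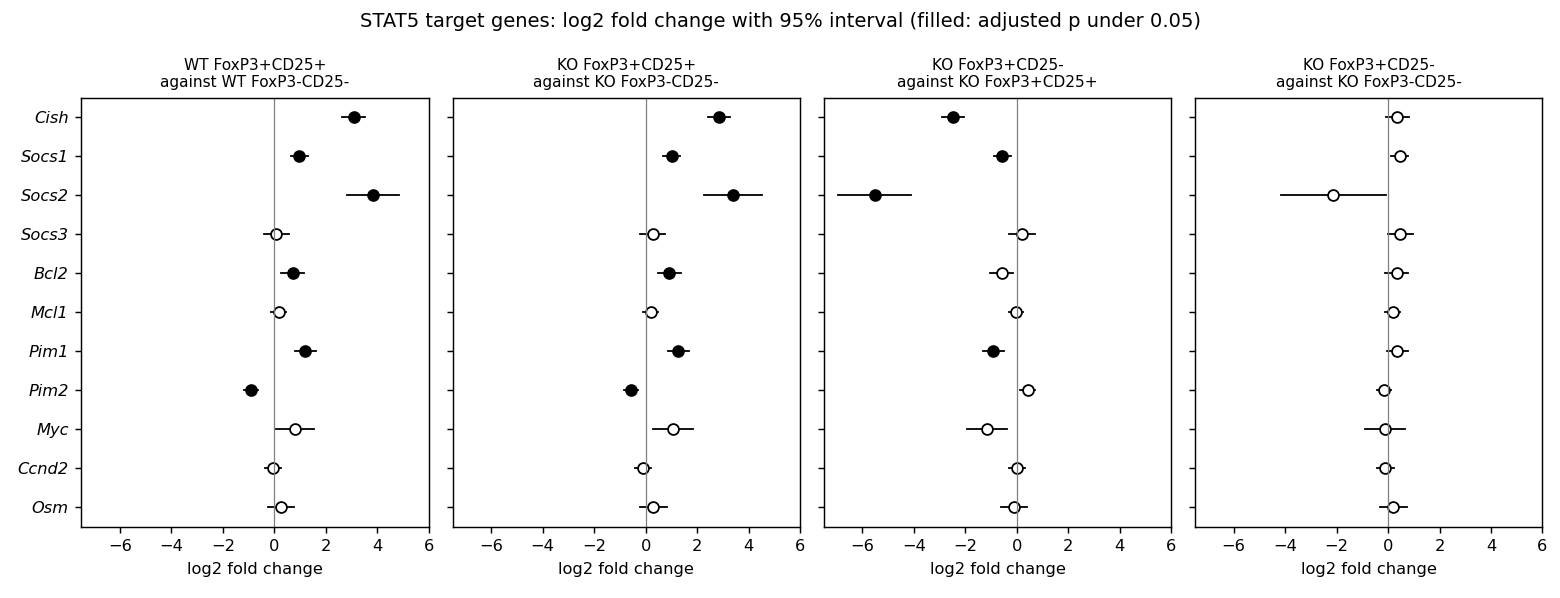
log2 fold changes with 95% intervals of 11 genes known as STAT5 targets (horizontal axis) in 4 comparisons, filled where the adjusted p was under 0.05. *Cish* and *Socs2* lie well to the right in both Treg contrasts and to the left in KO FoxP3+CD25- cells against KO Tregs, and no point is filled in the comparison with KO non-Tregs.

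Of the signalling genes between receptor and target, at most 3 were called in a comparison. Of 15 genes for kinases, STAT factors, adaptors and the accessory receptor *Crlf2*, 14 passed the filter. In WT Tregs against non-Tregs 2 were called higher, *Stat5a* (log2 fold change 0.65, SE 0.12, FDR = 0.00438) and *Jak3*, the kinase bound to the common gamma chain (0.51, SE 0.13, FDR = 0.0307), and 1 lower, the kinase subunit *Pik3cd* (-0.40, SE 0.11, FDR = 0.0338), so 3 of 14 beside 10.9% of all genes. In KO Tregs 1 was called, *Stat5a* (0.52, SE 0.12, FDR = 0.0254), beside 6.34% of all genes. In KO FoxP3+CD25- cells against WT Tregs 2 were lower, *Stat5a* (-0.45, SE 0.12, FDR = 0.0334) and *Jak3* (-0.48, SE 0.13, FDR = 0.0414), and 1 higher, *Pik3cd* (0.37, SE 0.11, FDR = 0.0474). In the other comparisons 0 of 14 were called, where 0% to 7.01% of all genes were.

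The genes closest in pattern to each member were found by the root mean square distance of centred log2 CPM over the 10 libraries. *Il7r* lay nearest to *Klhdc1* (distance 0.09) and *Lef1* (0.16), a transcription factor of naive T cells counted among the naive markers, and *Il2rb* to *Gm8281* (0.24) and *Hk2* (0.29). *Il9r* lay nearest to *E2f8* (0.40) and *Hrh4* (0.42), *Il2* to *Sestd1* (0.49) and *5930435M05Rik* (0.49), and *Il2ra* to *Itgae* (0.95) and *Sdc4* (0.998). Genes of narrow range had close neighbours of narrow range: *Il2rg* lay nearest to *Ndufa9* (0.04) and *Dbnl* (0.04), *Il21r* to *Huwe1* (0.06) and *AI314180* (0.07), *Il4ra* to *Gm44103* (0.09) and *Ifi203* (0.11), and *Il15ra* to *Trappc9* (0.09) and *Ankrd61* (0.10). The nearest genes were thus other genes, in none of the 9 cases another member.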

How the data were processed

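RNA-seq was analysed for 10 libraries of sorted spleen CD4+ T cells, 2 in each of 5 groups. The deposited values are raw counts per gene symbol. Per the labels and the study's methods, the authors aligned reads to mm10 (GRCm38) with HISAT2 (version 2.1.0) and counted them with HTSeq (version 0.11.1 in the submitters' processing notes). The deposited counts are not normalized. The strand setting was not given in the sources used here. Reads on genes were 26.0% to 28.5% of all reads.

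A single model with 5 group means was fitted to the 10 libraries in edgeR (version 4.0.16; R version 4.3.3, limma version 3.58.1): filterByExpr with a minimum count of 10, TMM normalization, the bias-adjusted quasi-likelihood F-test (two-sided) and Benjamini-Hochberg adjustment over 13796 genes, called at FDR 0.05. SE is the log2 fold change over the square root of F. Floors of 3 counts cover counting error only. RPKM used exon lengths of GENCODE M21. The steps were tested on simulated data. No exact permutation test was run, since 2 libraries against 2 allow no p under 0.333.

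The members and gene lists were chosen with earlier results of these data known. Named were all members, *Satb1* and *Foxp3*, at most 4 genes of lowest p per list and comparison among those called, and the 2 genes nearest each member in pattern. Low-count ligands, *Lrrc32*, *Cd79b*, *Ms4a1*, *Ncr1*, *Klrb1c*, *Klre1*, *Cd14*, *Itgam* and *Eomes* were named after their values were seen. Of the marker lists, 1 B-cell and 1 memory gene are not reported here and enter no sum. Alternatives were other filters, factors and thresholds, DESeq2 (version 1.42.0), fits of fewer groups, blocks for the replicate, and each library left out. Leaving out both libraries of WT replicate 1 was chosen after seeing the data. Same-numbered libraries within a genotype deviated together (r = 0.303 in WT, 0.421 to 0.445 in KO, across genes) and were read as 1 mouse.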

Additional observations from a re-analysis of the deposited data

Results flagged for a closer look

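*Il9r* was flagged because the fit with the mouse as a block called its Treg contrast different between genotypes. The main model did not call this difference in *Il9r*. In KO it was lower in Tregs, at 17.4 and 13.8 CPM against 43.8 and 38.7 CPM, and in WT the libraries overlapped, at 12.2 and 10.2 CPM against 6.63 and 11.1 CPM. The difference of the contrasts, KO minus WT, was -1.77 on the log2 scale with the mouse as a block (SE 0.32, FDR = 0.0287 in edgeR's quasi-likelihood test over all genes) and -1.75 without it (FDR = 0.520). Its cause was not tested.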

How the results depend on the processing

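Of 1061 fold changes of members under an alternative, 1018 kept their direction or stayed uncalled, 18 lost a call, 25 gained one and 0 called values turned direction, while 31 values called in neither fit changed sign. In KO FoxP3+CD25- cells against KO non-Tregs, where 1 member was called, 4 were called without a filter, 2 with library size alone, 3 in DESeq2, 2 in a fit of the compared groups and 3 with the replicate block for the mouse, and 1 to 3 with a library left out. Against KO Tregs (5 called), 3 were called at FDR 0.01 and 3 to 4 with a library left out. In KO against WT non-Tregs (1 called), 3 were called without a filter, 3 in DESeq2, 2 in a fit of the compared groups, 0 at FDR 0.01, 0 to 0 with a library left out and 0 without WT replicate 1. In the difference of contrasts (0 called), DESeq2 and the replicate block each called 1. The cause of these changes was not tested, apart from fewer libraries. The block changed no call of a member beyond those given in the report for *Il2*, *Il2rb*, *Il4ra*, *Il21r* and *Il9r*.

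Counts over all genes moved by over 1.5 times under some settings. With the replicate block for the mouse they were 2634 in WT Tregs against non-Tregs (1504 without it), 1649 in KO (874), 786 (230) and 2090 (967) in KO FoxP3+CD25- cells against KO non-Tregs and KO Tregs, and 148 (0) in the difference of contrasts. Between genotypes the number alone was shared (correlations of deviations -0.01 to 0.11), and with a block for it the counts were 217 (106) in KO FoxP3+CD25- cells against WT non-Tregs, 108 (20) in non-Tregs and 4 (1) in Tregs. Where edgeR called 230 genes (KO FoxP3+CD25- cells against KO non-Tregs), DESeq2 called 366 and a fit without a filter 411, and where it called 106 (against WT non-Tregs) they called 217 and 238. In KO against WT non-Tregs (20 called) they called 111 and 91, a fit of the compared groups 66 and library size alone 31. In KO against WT Tregs (1 called) they called 5 and 5 and a fit of the compared groups 0, and in the difference of contrasts (0 called) 25 and 7. At FDR 0.01 the counts were 854 and 407 in the WT and KO Treg contrasts, 84, 498, 27 and 812 in KO FoxP3+CD25- cells against KO non-Tregs, KO Tregs, WT non-Tregs and WT Tregs (1548 at 0.05), and 6 in KO against WT non-Tregs. A fit of the compared groups called 926 genes against WT Tregs. With a library left out, the counts were 828 to 2185 and 396 to 441 in the WT and KO Treg contrasts, 30 to 169, 410 to 562, 25 to 57 and 790 to 1981 in KO FoxP3+CD25- cells in the order just given, 1 to 7 and 0 to 4 in KO against WT Tregs and non-Tregs, and 0 to 121 in the difference of contrasts. Without both libraries of WT replicate 1 they were 715 in WT Tregs against non-Tregs, 42 and 974 in KO FoxP3+CD25- cells against WT non-Tregs and WT Tregs, and 3 in KO against WT Tregs.

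With 2 libraries a group and 5 residual degrees of freedom, members of few counts limit what can be seen: *Il2* had at most 37 counts and *Il15ra* at most 198 in a library.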
